A study of Glycine max with 10 samples.

Results

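Soybean (Glycine max) pods of high shattering force were set against pods of low force, within the libraries that shared a low level of LHY1a, a morning gene of the circadian clock. The rule kept a library where LHY1a (Glyma.16G017400) lay below 100 CPM (read counts scaled to a common library total), leaving out a block of 129 neighbouring gene IDs on chromosome 13. It kept 7 of the 10 libraries, 4 of high force (soybeans 018, 044, 060 and 071) and 3 of low force (soybeans 038, 092 and 109), named high_force and low_force here. LHY1a stood at 28.2, 21.9, 21.0 and 24.2 CPM in high_force 018, 044, 060 and 071. It stood at 18.6, 15.4 and 19.6 CPM in low_force 038, 092 and 109. In the libraries that were left out it stood at 1417 (high_force 015), 423.6 (low_force 055) and 758.9 CPM (low_force 072), so no library lay near the limit. The libraries were thus selected on these LHY1a values, which are given without a test.

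The plants were field-grown and the pods were taken 18 days after flowering, per the labels. RNA was extracted with Trizol, treated with DNase and sequenced from both ends after TruSeq library construction. The labels give each soybean only a number and its force class. They do not give its line, the hour of harvest, how force was measured, or whether it stands for a single plant or several, and the p-values cover no more than the spread between these samples.

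Dry soybean pods open when the walls twist and the dehiscence zone along the suture gives way. The lignified inner sclerenchyma of the wall supplies the twisting force, the dirigent-like gene Pdh1 promotes it, and NAC factors such as SHAT1-5 control thickening of fibre cap cells at the suture. The circadian clock moves many plant genes through the day, with the MYB factors of the LHY type high around dawn and the evening complex, of which LUX and ELF3 proteins are parts, high at dusk. The comparison asks how the force classes differ where this morning gene is low in all libraries. Gene names were paired with IDs from published soybean work, as recalled, since the deposited counts carry IDs only.

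The 7 libraries held 3779756 to 13298201 counts, of which the chromosome 13 block took 1.33% to 19.7%. After scaling, 3 counts in a library correspond to 0.217 to 0.799 CPM, and from here on CPM is per the scaled library size. Secondary wall genes of the pod were present in all 7 libraries, with SHAT1-5 between 24.95 and 45.3 CPM. Low_force 092 stood apart from the other libraries. It had 1183 genes at least 4-fold above and 2520 at least 4-fold below the median of the other 6, against 195 to 348 above and 253 to 471 below in each other library. Its median Spearman correlation with the other 6, across the genes tested, was 0.787, and that of the others lay between 0.900 and 0.921.

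**Figure D1:**
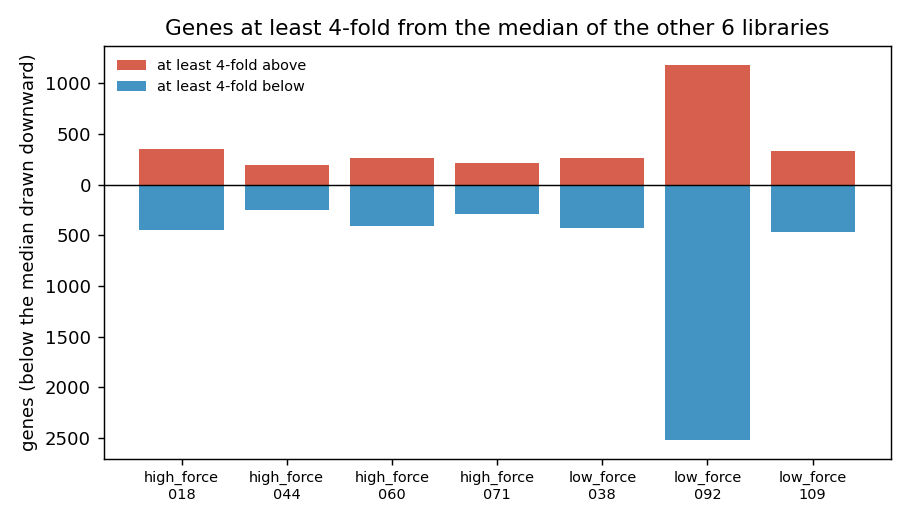
Number of tested genes at least 4-fold above (upward bars) or below (downward bars) the median of the other 6 libraries, for each of the 4 high_force and 3 low_force libraries. Low_force 092 has 1183 above and 2520 below, and no other library passes 348 above or 471 below.

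Morning genes were low in all 7 libraries, while the evening genes J and LUX2 differed between the low_force libraries. LHY1b (Glyma.07G048500) ranged from 9.17 to 15.05 CPM among high_force libraries and from 8.43 to 11.8 CPM among low_force ones, and LHY2a (Glyma.19G260900) and LHY2b (Glyma.03G261800) stood at no more than 6.01 CPM in any of the 7. J (Glyma.04G050200), which encodes an ELF3 protein of that complex, stood at 98.6, 138.8, 120.4 and 165.8 CPM in high_force 018, 044, 060 and 071. In low_force it stood at 144.6 CPM in 038, 32.3 CPM in 092 and 63.9 CPM in 109, so low_force 038 lay among the high_force libraries while 092 and 109 lay below all of them. LUX2 (Glyma.11G136600), another evening complex gene, also lay below all high_force libraries in low_force 092 and 109 but not in 038, with 67.6 to 100.6 CPM in high_force against 80.5, 54.7 and 46.02 CPM in low_force 038, 092 and 109. LUX1 (Glyma.12G060200) overlapped, at 34.5 to 63.9 CPM and 39.2 to 59.7 CPM, and so did PRR3b (Glyma.12G073900), a pseudo-response regulator of the clock, in 2 of the 3 low_force libraries, at 126.5 to 227.03 CPM and 106.3 to 149.06 CPM. The part that such evening gene differences have in the results below was not tested.

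Between the force classes, 2 of 32368 genes tested differed past an adjusted p of 0.05, Glyma.13G353500 higher and Glyma.17G058000 lower in high_force (0.00618% of the genes tested, 0.00309% in each direction). The test was edgeR's quasi-likelihood F test, two-sided, with Benjamini-Hochberg adjustment over all genes tested, and log2 fold changes are high_force minus low_force with their standard error (SE). Before adjustment, 788 genes (2.43%) had p under 0.01, 243 higher (0.751%) and 545 lower (1.68%) in high_force. Levels of the classes were separate, without overlap, in 3135 genes (9.69%), of which 1524 were higher (4.71%) and 1611 lower (4.98%) in high_force. Both calls were lost without high_force 018, 044 or 071 (0 calls each), in limma-voom (0 calls; 3404 genes at unadjusted p under 0.05) and in a fit of all 10 libraries with a term for LHY (0 calls; 2842 genes at unadjusted p under 0.05). There were 4 calls without high_force 060, 31 without low_force 038, 9 without low_force 092 and 4 without low_force 109.

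Glyma.17G058000, on chromosome 17, was nearly silent in high_force pods and expressed in all 3 low_force libraries. Its levels were 0.795, 0.578, 1.598 and 0.722 CPM in high_force 018, 044, 060 and 071, on 3 to 8 counts each, and 34.9, 22.7 and 28.3 CPM in low_force 038, 092 and 109. The groups were far apart, with a mean of 0.923 ± 0.459 CPM (SD, n = 4) against 28.6 ± 6.08 CPM (SD, n = 3). Its log2 fold change was -5.06 (SE 0.39), with an edgeR adjusted p of 0.00919. It stayed between -5.22 and -4.88 without each low_force library in turn, so the difference rests on none of them alone. Among the left-out libraries high_force 015 stood at 16.97 CPM and low_force 072 at 21.6 CPM, so high_force 015 did not share the low level of its class. Low_force 055 had 0 counts, where 3 counts make 4.19 CPM, so it did not share the high level of its class either.

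Glyma.13G353500, on chromosome 13, was found in all 4 high_force libraries and had 0 counts in all 3 low_force libraries. It stood at 15.1, 12.6, 17.8 and 21.1 CPM in high_force 018, 044, 060 and 071. Its mean of 16.6 ± 3.65 CPM (SD, n = 4) was at least 33.6-fold higher than the 0.496 CPM that 3 counts allow in low_force 038, the low_force library with the highest such limit. The edgeR adjusted p was 0.0217, and it stayed under 0.05 without each low_force library but not without any of the high_force libraries. In the left-out libraries it stood at 23.8 CPM in high_force 015 and had 0 counts in low_force 072, but low_force 055 had 6 counts, or 8.38 CPM.

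The same kind of pattern, 0 counts in every library of a force class and at least 10 counts in every library of the other, was found in 2 genes, both absent in low_force. Glyma.04G165200, named after its values were seen, was the other of them, with 23, 220, 58 and 192 counts in high_force 018, 044, 060 and 071. Its high_force mean was at least 30.5-fold above the same limit, and its edgeR adjusted p was 0.0903. Low_force 072, which was left out, had 26 counts of it, so the absence did not extend to all low_force soybeans. These are counts of reads and do not show whether the gene is missing from the genome of a soybean. The next ID, Glyma.04G165300, also seen after its values were known, differed the same way without overlap. There were 30 pairs of neighbouring tested genes that had p under 0.01 in the same direction, 7 pairs higher and 23 lower in high_force. Glyma.04G165200 and Glyma.04G165300 form such a pair. The share of such pairs over all neighbouring pairs was not taken.

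Glyma.17G152600 and Glyma.17G108500 had the next smallest p in each direction, and neither passed the threshold (edgeR adjusted p = 0.0593 and 0.0596). Glyma.17G152600 stood at 49.6, 51.9, 35.2 and 34.8 CPM in high_force 018, 044, 060 and 071 and at 1.32, 3.81 and 4.04 CPM in low_force 038, 092 and 109. Glyma.17G108500 was very even in high_force, at 76.6, 73.5, 74.3 and 77.8 CPM, and higher in low_force, at 267.6, 393.5 and 349.7 CPM. The groups did not overlap for either gene, with log2 fold changes of 3.79 (SE 0.41) and -2.16 (SE 0.24). Outside the 7 libraries, low_force 072 stood near its class for both genes, at 5.32 CPM of Glyma.17G152600 and 284.3 CPM of Glyma.17G108500. So did low_force 055 for Glyma.17G152600, at 1.40 CPM on 1 count, where 3 counts make 4.19 CPM. Glyma.17G152600 had 1 count (0.215 CPM) in high_force 015, where 3 counts make 0.644 CPM, below every low_force library of the comparison. Glyma.17G108500 stood at 31.6 CPM in high_force 015 and at 41.9 CPM in low_force 055, below every high_force library of the comparison.

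**Figure D2:**
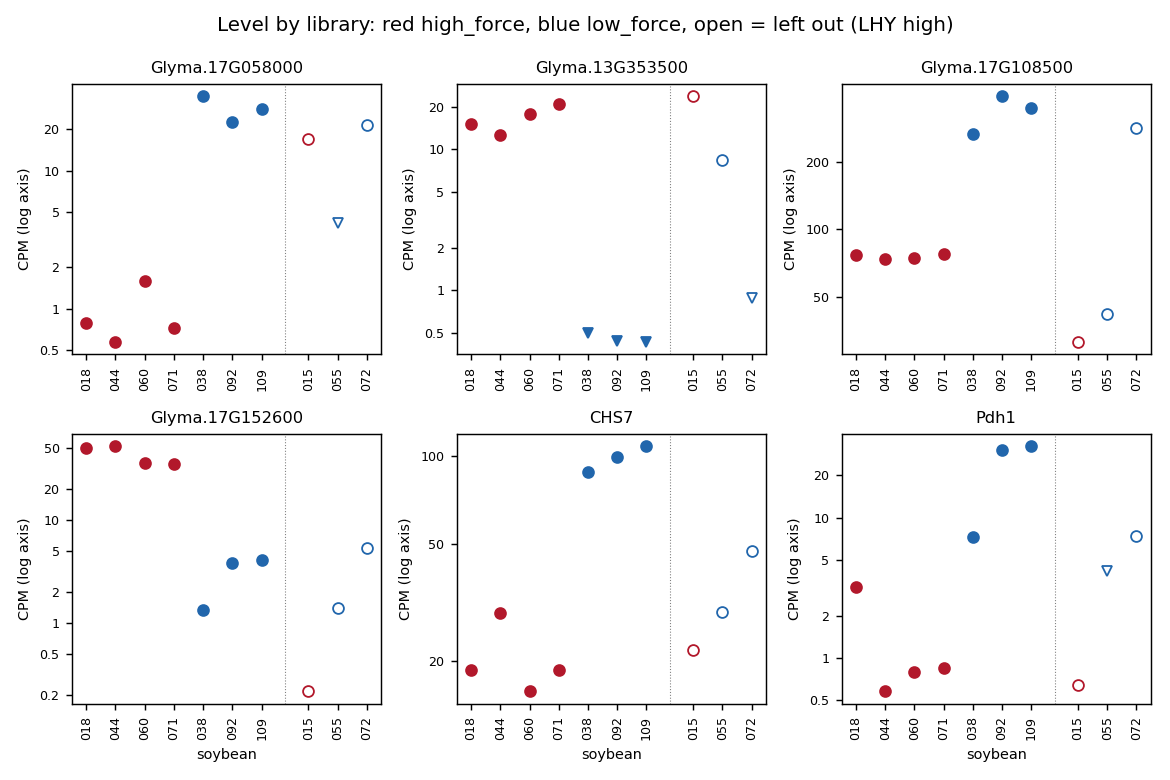
Level of the 4 genes named by ID for their small p, of CHS7 and of Pdh1 in each library, in CPM on a log axis, with high_force in red and low_force in blue, filled for the 7 libraries compared and open for the 3 left out. Triangles stand for 0 counts and are drawn at the level of 3 counts. The filled red and blue points do not overlap in any panel, while the open red point of high_force 015 lies far above the filled red points for Glyma.17G058000 and below them for Glyma.17G152600.

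Of the 3 genes linked to pod shattering, Pdh1 had levels that did not overlap between the classes, while those of the secondary wall factors SHAT1-5 and NST1A overlapped. None of the 3 passed the test over all genes, and the median of their log2 fold changes was -0.08 against 0.0019 over all genes tested. Pdh1 (Glyma.16G141400) stood at 3.18, 0.578, 0.799 and 0.843 CPM in high_force 018, 044, 060 and 071, on 3 to 12 counts each, and at 7.27, 30.5 and 32.3 CPM in low_force 038, 092 and 109. Low_force 038 lay nearest to high_force, and the groups did not overlap. The log2 fold change of -4.26 (SE 0.70) had an edgeR adjusted p of 0.224, the fifteenth smallest p among genes lower in high_force, and of 0.0360 without low_force 038. Without low_force 092 or 109 it was -4.04 and -3.90, with adjusted p of 0.278 and 0.206. Leaving out a high_force library gave adjusted p of 0.217 to 0.712, so the test was passed in edgeR only without low_force 038. Among the left-out libraries Pdh1 stood at 0.644 CPM (3 counts) in high_force 015 and 7.39 CPM in low_force 072, and low_force 055 had 0 counts, where 3 counts make 4.19 CPM.

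SHAT1-5 (Glyma.16G019400) stood at 33.2 ± 5.40 CPM (SD, n = 4) among high_force libraries and 35.2 ± 10.2 CPM (SD, n = 3) among low_force libraries. Its log2 fold change of -0.08 (SE 0.26) turned to 0.14 without low_force 092 and to 0.055 with library size scaling. NST1A (Glyma.07G050600), a NAC factor of secondary wall formation, stood at 55.4 ± 10.4 and 46.3 ± 12.01 CPM, a log2 fold change of 0.26 (SE 0.26, edgeR adjusted p = 0.669).

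The 5 flavonoid genes all had lower means in high_force pods, with a median log2 fold change of -2.15, and 0 of the 5 passed over all genes tested. The chalcone synthases CHS7 and CHS8, which make the first committed step of flavonoid synthesis, separated the classes in all 7 libraries. CHS7 (Glyma.01G228700) stood at 18.6, 29.2, 15.7 and 18.7 CPM in high_force 018, 044, 060 and 071 and at 87.8, 98.8 and 107.8 CPM in low_force 038, 092 and 109. The low_force levels lay close together, 4.78-fold above high_force on the means. The log2 fold change of -2.25 (SE 0.26) had an edgeR adjusted p of 0.0688, the third smallest p among genes lower in high_force. It was -2.32, -2.24 and -2.16 without low_force 038, 092 and 109, with edgeR adjusted p of 0.0379, 0.0547 and 0.121. Leaving out a high_force library gave adjusted p of 0.0993 to 0.323, and the direction was the same each time.

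CHS8 (Glyma.11G011500) stood at 9.81, 26.9, 13.6 and 7.58 CPM in high_force 018, 044, 060 and 071 and at 51.6, 92.1 and 52.4 CPM in low_force 038, 092 and 109. Its log2 fold change was -2.15 (SE 0.44, edgeR adjusted p = 0.382), and low_force 092 set its highest level but not the separation of the groups. Reads may be split between these near-identical genes, which makes the level of each uncertain. In the left-out libraries both genes stood in the same order, CHS7 at 21.7 CPM in high_force 015 against 29.3 and 47.3 CPM in low_force 055 and 072, and CHS8 at 12.7 against 18.1 and 28.7 CPM. These gaps were smaller than in the 7 libraries. IFS1 went the other way, at 6.23 CPM (29 counts) in high_force 015 against 2.79 CPM (2 counts) in low_force 055 and 0.295 CPM (1 count) in low_force 072.

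The isoflavone synthases, which turn flavanones towards isoflavones, differed from each other in where low_force 092 stood. IFS1 (Glyma.07G202300) stood at 0.795, 3.61, 0.266 and 3.85 CPM in high_force 018, 044, 060 and 071 and at 13.9, 42.1 and 7.21 CPM in low_force 038, 092 and 109. The groups did not overlap, and the log2 fold change went from -3.15 (SE 0.78, edgeR adjusted p = 0.398) to -2.16 without low_force 092. IFS2 (Glyma.13G173500) overlapped, with 9.01 to 64.7 CPM in high_force against 109.6, 36.5 and 68.7 CPM in low_force 038, 092 and 109, and low_force 092 was its lowest low_force library. T (Glyma.06G202300), a flavonoid hydroxylase gene of pubescence colour, lay outside the high_force range in low_force 092 alone. It stood at 28.6, 22.8, 64.98 and 11.4 CPM in high_force and at 17.4, 94.7 and 43.9 CPM in low_force, and its log2 fold change of -0.72 (SE 0.64) became 0.038 without low_force 092.

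The florigen genes, whose products are mobile signals of flowering, had lower means in high_force, and neither passed the test. FT2a (Glyma.16G150700) stood at 16.96, 11.3, 8.79 and 15.05 CPM in high_force 018, 044, 060 and 071 and at 48.9, 118.8 and 29.6 CPM in low_force 038, 092 and 109. The groups did not overlap, and the log2 fold change of -2.34 (SE 0.46, edgeR adjusted p = 0.381) was -1.59 without low_force 092. FT5a (Glyma.16G044100) overlapped in low_force 038, at 12.2 CPM against 6.26 to 14.8 CPM in high_force, while low_force 092 and 109 stood at 41.9 and 19.8 CPM. Its log2 fold change of -1.26 (SE 0.46) became -0.63 without low_force 092. The left-out libraries went the other way for FT2a, with 41.9 CPM in high_force 015 against 11.2 and 9.16 CPM in low_force 055 and 072.

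The exact permutation test could not pass 0.05 for any single gene, because its smallest two-sided p over the 35 assignments of 7 libraries to 4 and 3 is 0.0571. A gene reaches that value when its groups do not overlap, as they did not in 9.69% of all genes tested. The groups did not overlap for ACT11 and ELF1B, 2 of the 4 reference genes used in soybean work as stable controls. ACT11 (Glyma.18G290800), an actin, stood at 78.1 ± 20.7 CPM (SD, n = 4) among high_force libraries and 114.3 ± 7.18 CPM (SD, n = 3) among low_force libraries, a log2 fold change of -0.55 (SE 0.26). ELF1B (Glyma.02G276600), a translation elongation factor, stood at 59.8 ± 4.04 and 88.6 ± 19.9 CPM, a log2 fold change of -0.57 (SE 0.23). Neither passed edgeR's test over all genes (adjusted p = 0.470 and 0.432). For UKN1 the log2 fold change was -0.16 (SE 0.28) and for TIP41 -0.17 (SE 0.23), and both signs turned without low_force 092, to 0.11 and 0.0075.

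Low_force 109 stood out for genes of seed storage proteins, which lay near the level of the other libraries in low_force 038 and 092. Gy1 (Glyma.03G163500), a glycinin, the legumin-type storage protein of soybean seed, stood at 15.6, 0.433, 92.7 and 6.74 CPM in high_force 018, 044, 060 and 071 and at 2.81, 59.5 and 7977 CPM in low_force 038, 092 and 109. Gy4 (Glyma.10G037100), another glycinin, stood at 3487 CPM in low_force 109 and at no more than 25.8 CPM in the other 6. Le1 (Glyma.02G012600), the seed lectin, stood at 626.6 CPM in low_force 109 and at no more than 1.33 CPM in the other 6. Summed over the 7 genes of the list, the level ran from 1.30 to 216.0 CPM in high_force, was 36.9 and 108.5 CPM in low_force 038 and 092, and was 20296 CPM in low_force 109. In a bulk sample more cells of a type and more RNA per cell cannot be told apart.

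All 7 seed reserve genes had negative log2 fold changes, between -8.48 and -5.77 with a median of -6.79, and 0 of 7 passed over all genes tested. In 6 of the 7 low_force 109 alone lay above the high_force range. The exception was Gy3 (Glyma.19G164900), where low_force 092 stood at 6.30 CPM (43 counts), just above the 5.33 CPM of high_force 060. Without low_force 109, and leaving Le1 aside, the log2 fold changes of the other 6 lay between -0.85 and 0.85, and Le1 had too few counts to be tested. The highest of these was KTI3 (Glyma.08G341500), a trypsin inhibitor, which turned to 0.85. Of the 7 genes, 1 had 0 counts in high_force 044 and 1 in low_force 038.

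Genes were counted by whether a single low_force library lay outside the range of the 4 high_force libraries on the side of the difference. This describes levels, and such a gene can still differ without that library. Over all genes tested it held for low_force 092 in 8344 genes (25.8%), for low_force 109 in 2793 (8.63%) and for low_force 038 in 2131 (6.58%). A small p leaves few of them, since a library apart from the rest of its class adds to the spread that the test uses. The counts at small p therefore do not measure how much rests on a single library. Among the 788 genes with unadjusted p under 0.01, 644 had groups that did not overlap, 0 had low_force 092 alone outside the range, 0 low_force 038 alone and 6 low_force 109 alone. In a further 87 (11%) low_force 092 and 109 lay outside the range on the side of the difference and low_force 038 did not, beside 20.8% of all genes tested.

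The refits gave low_force 092 a larger part. Of the 788 genes, 75 had p under 0.05 without low_force 038 and without 109 but not without 092, and 19 depended in the same way on low_force 109 and 1 on low_force 038. Genes with too few counts to be tested in any of these refits, such as Le1, were not counted. Without low_force 092, 329 of the 788 kept p under 0.01, against 503 without low_force 109 and 635 without low_force 038. The number of genes with p under 0.01 was 475 (1.45%) without low_force 092, 1233 (3.74%) without low_force 109 and 2283 (6.79%) without low_force 038. Leaving out high_force 018, 044, 060 or 071 gave 419 (1.32%), 457 (1.47%), 472 (1.48%) and 368 (1.18%). A fall to this size was thus not particular to low_force 092. Fits without a low_force library keep 2 low_force libraries.

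The log2 fold change was at least 2 in size, a 4-fold difference, in 778 genes (2.40%), 315 higher and 463 lower in high_force. Of these, 327 (42%) had groups that did not overlap, beside 9.69% of all genes tested. Low_force 092 alone lay outside the range in 73 (9.38%, beside 25.8% of all genes tested). Low_force 109 alone did so in 34 (4.37%, beside 8.63%) and low_force 038 alone in 14 (1.8%, beside 6.58%). Without low_force 092, 351 of the 778 were still at least 4-fold different in the same direction, against 640 without low_force 109 and 706 without low_force 038. Without low_force 092, 26 genes changed sign and 34 had too few counts to be tested. The loss was seen in both directions, with 167 of the 463 lower genes and 184 of the 315 higher genes still 4-fold different without low_force 092.

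**Figure D3:**
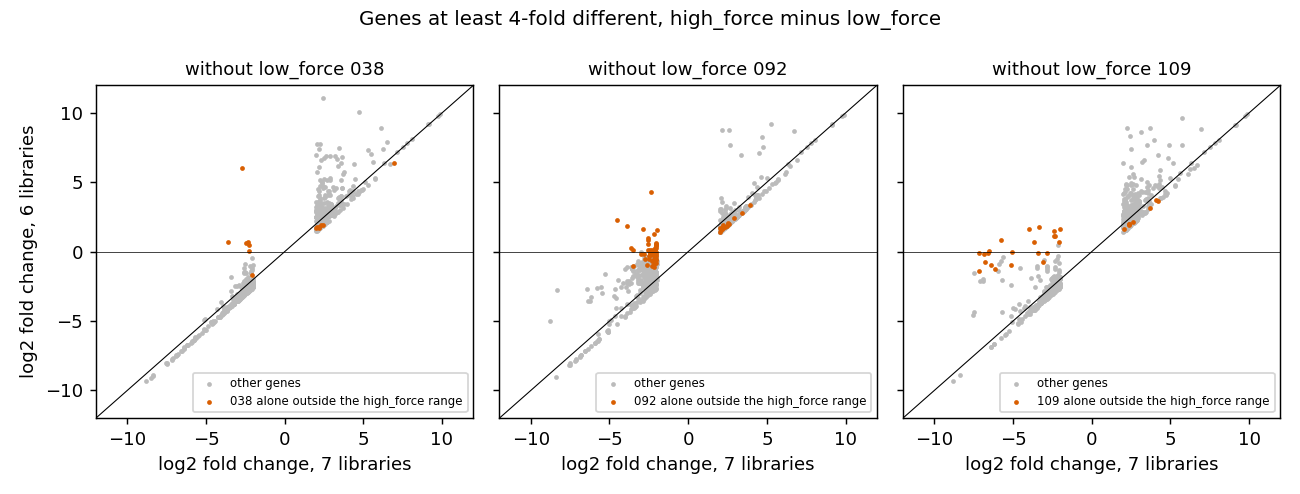
Log2 fold change (high_force minus low_force) of genes at least 4-fold different in the 7 libraries, against the value without low_force 038, 092 or 109, with genes for which that library alone lies outside the high_force range in orange. The diagonal marks equal values, and of the 778 genes 706, 351 and 640 stayed at least 4-fold different in the same direction without 038, 092 and 109.

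Low_force 092 alone lay outside the high_force range for Glyma.09G139200 and Glyma.02G061600, the genes of this kind with the smallest p among those lower in high_force. Glyma.09G139200, on chromosome 9, stood at 179.6 CPM in low_force 092, at 9.09 and 9.66 CPM in low_force 038 and 109, and at 5.06 to 14.3 CPM in high_force. Its log2 fold change of -2.97 (SE 0.98) became -0.15 without low_force 092. Glyma.02G061600, on chromosome 2, stood at 21.3 CPM in low_force 092 against 1.65 and 1.30 CPM in low_force 038 and 109 and 0.241 to 2.12 CPM in high_force, and its log2 fold change went from -3.49 (SE 1.13) to -1.02. Among genes higher in high_force, Glyma.03G252700 had 1 count in low_force 092 and Glyma.08G305500 stood at 9.53 CPM there, below every high_force library. Without it their log2 fold changes went from 3.90 (SE 1.27) to 3.35 and from 1.42 (SE 0.50) to 1.12. Their high_force levels spread widely, from 0.963 to 41.8 CPM and from 19.6 to 86.2 CPM.

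Low_force 109 alone lay outside the high_force range for Le1 and for Glyma.19G063400, on chromosome 19, the genes of this kind with the smallest p among those lower in high_force. Glyma.19G063400 stood at 650.1 CPM in low_force 109, at 6.94 and 3.81 CPM in low_force 038 and 092, and at 1.06 to 7.46 CPM in high_force. Its log2 fold change of -6.37 (SE 1.70) became -0.94 without low_force 109, the library in which the 7 seed reserve genes summed to 20296 CPM. The part of seed tissue in this difference was not tested. Glyma.18G281500 and Glyma.16G057600, higher in high_force, had their lowest level in low_force 109, at 0.866 and 0.289 CPM (6 and 2 counts). They kept log2 fold changes of 3.76 and 2.16 without it, against 4.08 (SE 0.999) and 2.65 (SE 0.89). Their high_force levels spread widely, from 1.59 to 55.2 CPM and from 0.799 to 13.4 CPM. In the left-out libraries Glyma.18G281500 went the other way, at 1.07 CPM in high_force 015 against 29.3 and 30.1 CPM in low_force 055 and 072. Glyma.16G057600 stood at 4.51 CPM in high_force 015 and 0.591 CPM (2 counts) in low_force 072, with 0 counts in low_force 055.

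**Figure D4:**
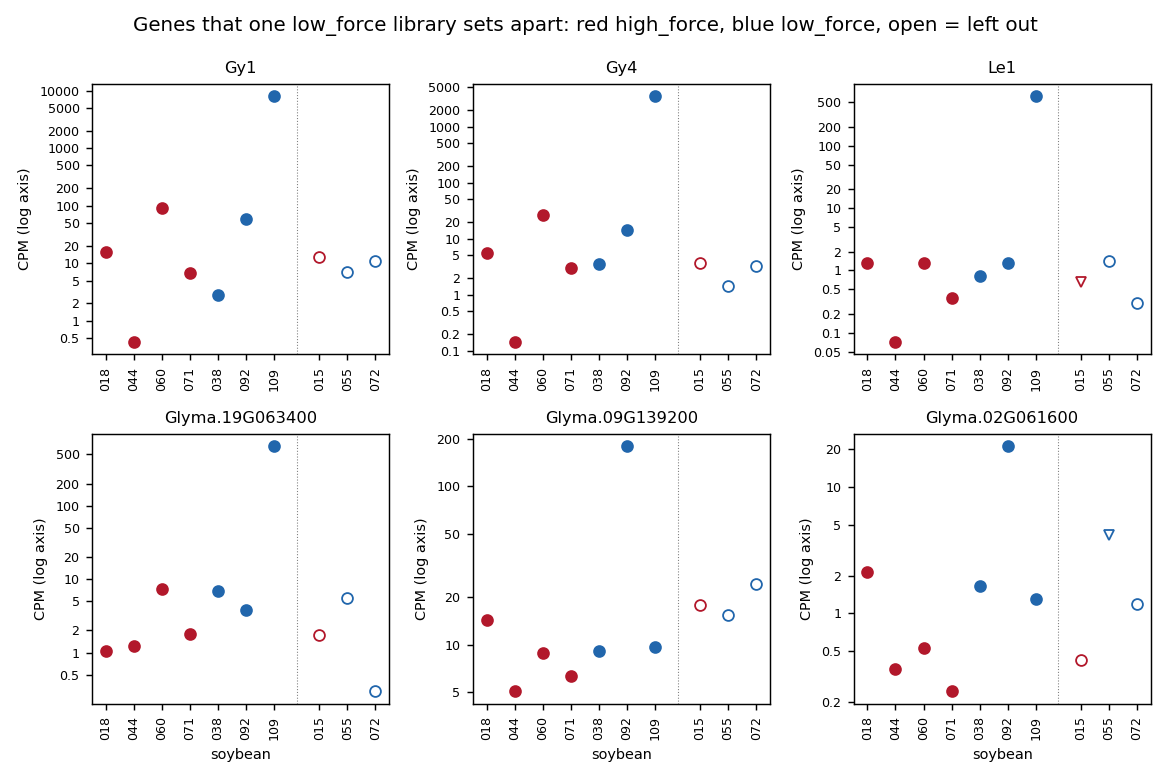
Level of 6 genes in each library, in CPM on a log axis, with high_force in red and low_force in blue, filled for the 7 libraries compared and open for the 3 left out; triangles stand for 0 counts at the level of 3 counts. Low_force 109 stands far above all others for Gy1, Gy4, Le1 and Glyma.19G063400, and low_force 092 for Glyma.09G139200 and Glyma.02G061600.

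DESeq2 called many more genes on the same 7 libraries, 433 of 34170 with an adjusted p (1.27%), 121 higher (0.354%) and 312 lower (0.913%) in high_force. The groups did not overlap for 354 of the 433 (81.8%), beside 9.69% of all genes that edgeR tested. In 1 gene each low_force 092 or low_force 109 alone lay outside the high_force range, beside 25.8% and 8.63%. The calls come from the same 7 libraries, so these shares are not a separate check. DESeq2's outlier filter was left at its default and can withhold p from a gene with 1 extreme library. None of the 7 seed reserve genes had an adjusted p in DESeq2. Genes set apart by 1 library could thus be kept from a call, and their small share among the calls cannot be read as a result. DESeq2 called 175 genes without low_force 092, 935 without low_force 109 and 2145 without low_force 038, which included 126, 321 and 386 of the 433. Fits without a low_force library leave that class too small for the outlier filter to screen, so these counts are not like for like with the 433. CHS7, CHS8, Pdh1, FT2a and IFS1 were among the 433, with adjusted p of 1.27e-10, 0.00177, 3.17e-06, 0.000921 and 0.0112. Without low_force 092 CHS7, CHS8, Pdh1 and FT2a stayed under 0.05 in DESeq2 (adjusted p = 1.11e-08, 0.0305, 0.000246 and 0.0105), while IFS1 did not (0.370). Without low_force 109 all 5 stayed under 0.05, with 0.00382 for CHS8 the largest.

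The 3 libraries with high LHY were not in the comparison of the 7, and their levels are set beside it here. They hold 1 high_force and 2 low_force libraries, too few for a test. In low_force 055 3 counts make 4.19 CPM, and the chromosome 13 block took 78.2% of its counts. Outside the block 30344 genes had a count there, against 37491 to 41344 in each of the 7 libraries compared. Genes with at least 10 counts over the 3 left-out libraries were used. For them the sign of high_force 015 minus the mean of low_force 055 and 072 was set beside that in the 7 libraries. It was the same in 374 of 732 genes with p under 0.01 (51.1%), close to the 14842 of 30662 genes tested (48.4%). Genes higher in high_force kept their sign in 163 of 232 cases (70.3%) against 56.9% of all genes tested with a higher mean. Genes lower in high_force kept it in 211 of 500 cases (42.2%) against 39.8%. The sign of a library difference is shared by many genes of a library, so these shares carry no p.

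The 788 genes with p under 0.01 were spread over all 20 chromosomes. Their share of the tested genes lay between 1.77% (chromosome 8) and 3.11% (chromosome 3), beside 2.43% over all, and more of them were lower than higher in high_force on each chromosome. Chromosome 16, which holds Pdh1, FT2a and FT5a, had 3.09%, with 8 higher and 29 lower.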

How the data were processed

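The table deposited by the authors holds unnormalized counts of reads, 56044 genes by 10 libraries. The tools listed in the submitters' processing notes, without roles, are edgeR, featureCounts, Subread 1.6.2, TopHat2 and Trim Galore 0.4.4. Gene IDs end in Wm82.a2.v1; the genome build, the use of strand and the handling of multi-mapped reads are not given in the sources used here.

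The 129 IDs from Glyma.13G011400 to Glyma.13G024200 were left out before library sizes were taken. Counts of the 7 libraries were TMM-scaled (edgeR's trimmed mean method) after filterByExpr (32368 genes) and tested with edgeR 4.0.16 in R 4.3.3, with the group as the only term. DESeq2 1.42.0 and limma-voom (limma 3.58.1) were alternatives, as were other scalings and filters and leaving out each library. Libraries outside the comparison were scaled together with all 10. Log2 CPM used a prior count of 2. Intervals from 3 counts cover counting error only. Exact permutation tests used scipy 1.17.1. The test was checked on simulated counts.

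The gene table (Glycine_max_v4.0) holds 59048 genes and 0 of the IDs, so gene classes planned from descriptions were not run. For 21 of the 29 genes named from recall it lists the symbol on the chromosome that the ID gives, and for the other 8 no symbol was matched. Genes named by ID had the 2 smallest p in each direction over all genes and among those with low_force 092 or 109 alone outside the high_force range. The libraries, genes and lists were chosen with earlier results of these data known.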

Additional observations from a re-analysis of the deposited data

Results flagged for a closer look

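In the 4 high_force libraries, 44 sets of values (named genes and library measures) were searched for a library far from the other 3. Chance alone gives about 1 in 20, and 2 sets met the criterion, about as many as chance gives among 44. PRR3b was high in soybean 071, with a log2 CPM of 7.83. Glyma.16G057600 was low in soybean 060, with a log2 CPM of 0.11 on 3 counts, where the other 3 high_force libraries lay at 10.6 to 13.4 CPM. The 3 low_force libraries are too few for this search.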

How the results depend on the processing

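The 2 calls were the same 2 genes with relative log expression scaling, with the chromosome 13 block kept, with at least 1 CPM in 3 libraries and in the robust fit, and library size scaling added 1 (3 calls, with the median of all genes at 0.12). Without a filter there were 6 calls and in DESeq2 433, both including the 2. There were 0 calls in limma-voom, 0 in all 10 libraries with a term for LHY and 0 in all 10 without it (1746 genes at unadjusted p under 0.05). Leaving out each library gave 0 to 31 calls, with 0 without high_force 018, 044 and 071 (2504, 2471 and 2179 genes at unadjusted p under 0.05), 4 without high_force 060, 31 without low_force 038, 9 without 092 and 4 without 109. The cause was not tested.

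Genes with low_force 092 alone outside the high_force range numbered 0 at p under 0.01 and 73 among genes at least 4-fold different, the last chosen after seeing the data, and 75 depended on it by refit. For low_force 109 these were 6, 34 and 19. Over all genes tested, 25.8% had low_force 092 alone outside that range and 8.63% low_force 109 alone. Of 469 values of single genes under other settings, 7 turned sign. SHAT1-5 reached 0.055 with library size scaling and ran from -0.28 to 0.14 over left-out libraries. Over left-out libraries T ran from -1.30 to 0.038, KTI3 from -8.02 to 0.85, UKN1 from -0.28 to 0.11 and TIP41 from -0.29 to 0.0075. No paired analysis was possible because the groups share no soybean number. Depth limits levels under 0.799 CPM.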
